A study of Saccharomyces cerevisiae with 6 samples.

Results

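IMX372 is a strain of the budding yeast Saccharomyces cerevisiae in which, per the labels and the design text, the major paralogs of the glycolytic genes sit at their native loci. The 2 IMX372 libraries were taken by strain label and by their columns in the deposited table, and they are 2 of the 6 libraries of the series. The labels describe polyadenylated RNA from aerobic culture, sampled into liquid nitrogen and extracted with hot phenol, and the design text of the series speaks of biological duplicates. The labels of both libraries point to an earlier deposit, and the growth protocol beside them names only other strains. The medium, the vessel and the full genotype of IMX372 were therefore not given in the sources used here. As background, "MG" in the sample titles is the usual short form for minimal glycolysis, a strain background in which minor paralogs of the pathway were deleted. The labels do not list those deletions, and the transcripts of the minor paralogs are given after the major ones. No group was set against another, so every value is a description of 1 strain with its spread over the 2 cultures, and no p-value is given.

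The libraries are called DSE001 and DSE002 after their column names, which do not say which labelled replicate each is. DSE001 held 70510681 reads on genes and DSE002 held 19100242, a 3.69-fold difference in depth. Levels are the authors' FPKM values, fragments per kilobase of gene model scaled to the reads on genes of each library. They are divided by the length of the gene model. This allows comparison between genes except where that length goes beyond the coding sequence, as with introns in many ribosomal protein genes. Of 5552 models with a coding length in the S288C reference, 390 were more than 50 bases longer than it. Of these 390, 235 were genes with introns in the reference. A count of 3 reads on a gene model of 1 kb corresponded to 0.0425 FPKM in DSE001 and 0.157 FPKM in DSE002, and a level under that is not distinguishable from no transcript by counting error alone. A share is a gene's FPKM divided by the summed FPKM of its library, and it is a fraction of the measured transcript pool, not a number of molecules per cell. Pairs of levels are given with DSE001 first and DSE002 second.

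As background, a growing yeast cell spends most of its transcription on making ribosomes and on central carbon metabolism. Glycolysis splits glucose into pyruvate, and pyruvate decarboxylase and alcohol dehydrogenase turn pyruvate into ethanol. Laboratory yeast ferments a large part of its glucose even in air, and its glycolytic genes are among the most strongly transcribed in the genome. Ribosomal protein genes are mostly present in duplicate, and many carry an intron, which is rare among other yeast genes.

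Marker genes were read against the labels, which name aerobic culture and no mating type. STE2, which encodes the receptor for alpha factor and is transcribed in cells of the a mating type, stood at 647 and 744 FPKM. The alpha-cell genes MF(ALPHA)1, MF(ALPHA)2, STE3 and SAG1 lay between 1.39 and 16.9 FPKM, all 4 below the median of all gene models, whereas the 4 a-cell markers with a model, STE2, BAR1, STE6 and AGA2, all lay above it. Of 7 markers of aerobic growth, 5 were above the median level, led by HYP2 at 9084 and 7947 FPKM and CYC1 at 1837 and 1664 FPKM, whereas CTT1 at 4.97 and 4.22 FPKM and HAP1 at 15.6 and 14.5 FPKM were below it. Of the 9 markers of oxygen-limited growth with a model, 2 were above it, HEM13 at 87.3 and 74.9 FPKM and TIR3 at 61.1 and 56.2 FPKM, and DAN1, a defining anaerobic cell wall gene, stood at 0.474 and 1.4 FPKM. The stationary phase list had 1 of 5 members above the median level, HSP12 at 63.5 and 52.7 FPKM, and the sporulation list had 0 of 5, with a highest mean of 15.6 FPKM for SPS4. In RNA pooled from a culture, fewer cells carrying a transcript and less transcript per cell cannot be told apart.

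Transcript abundance was concentrated in few genes. The median of the 5625 gene models was 45.8 FPKM over both cultures, 44.4 FPKM in DSE001 and 47.2 FPKM in DSE002. The 10 most abundant genes held 10.9% of the summed FPKM, the top 20 held 17.3%, the top 100 held 38.4% and the top 1000 held 79.5%. The 184 most abundant models held 50% of the pool and 1973 held 90%, while the 2812 models below the median held 5.34% together. In bands of mean level, 7 models reached 10000 FPKM, 194 lay between 1000 and 10000 FPKM, 1421 between 100 and 1000 FPKM, 3273 between 10 and 100 FPKM, 520 between 1 and 10 FPKM, 143 had reads but less than 1 FPKM, and 67 had no read in either culture. The 194 models between 1000 and 10000 FPKM carried the largest part of the pool of any band, 43.2%, and the 3273 models between 10 and 100 FPKM, 58.2% of all models, carried 12.6%. Genes near the middle of the ranking included UNG1, which encodes uracil-DNA glycosylase, at 45.4 and 46.2 FPKM, PHO23, a subunit of a histone deacetylase complex, at 51 and 40.6 FPKM, and RMP1, a subunit of RNase MRP, at 48.5 and 43.2 FPKM.

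**Figure D1:**
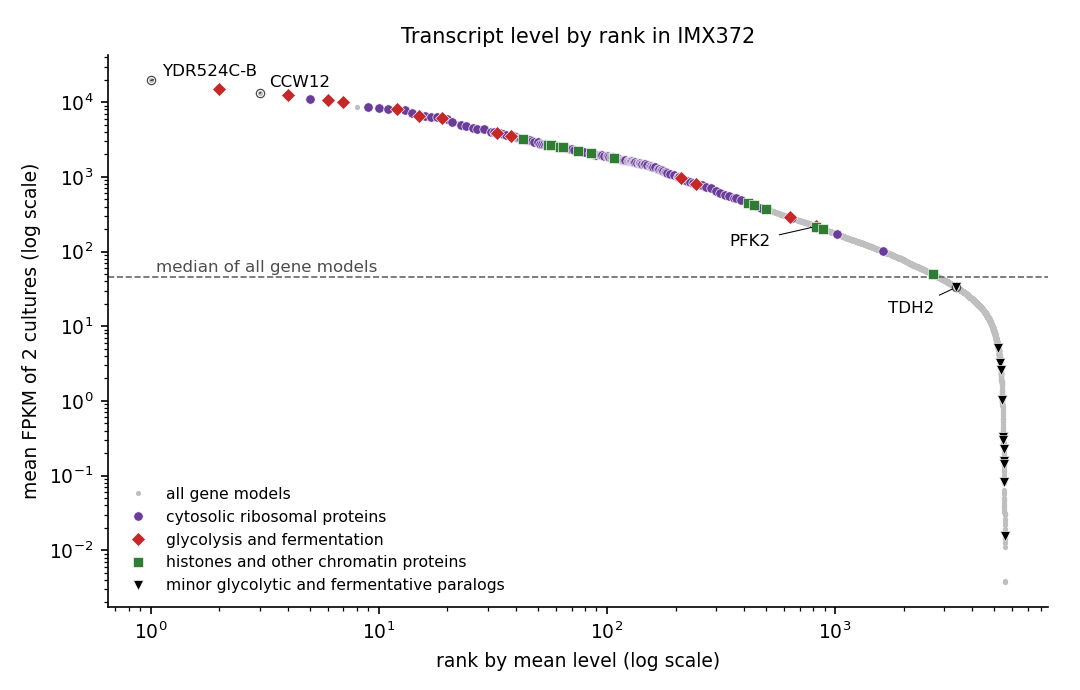
Mean FPKM of the 2 cultures (log axis) against rank (log axis) for every gene model with a read, with 4 functional groups coloured and the median of 45.8 FPKM as a dashed line. Glycolytic, ribosomal protein and histone genes crowd the first 100 ranks, and the minor paralogs of glycolysis lie below the median line.

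The most abundant transcript by length was YDR524C-B, a gene model of 201 bases on chromosome IV (positions 1468781 to 1468981 of the deposited CEN.PK113-7D models, minus strand), for which no role is given here. It stood at 20632 and 18595 FPKM, which is 1.82% of the pool and 428-fold over the median. This rested on 292408 reads in DSE001 and 71390 in DSE002. FBA1, fructose bisphosphate aldolase, came next at 15963 and 13860.1 FPKM, and CCW12, a mannoprotein of the cell wall, followed at 14589.5 and 11828 FPKM. Among the 20 most abundant genes, 10 encode ribosomal proteins, 7 encode enzymes of glycolysis or fermentation, and the other 3 are YDR524C-B, CCW12 and HYP2, the translation factor eIF5A. The top 100 held 56 ribosomal protein models, 9 models of glycolysis and fermentation, 7 of histones and 8 in none of the 49 functional lists used. Both cultures gave nearly the same ranking at the top, sharing 9 of their 10 most abundant models and 92 of their 100 most abundant.

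Short gene models were more abundant per length than long ones. In 5 length classes of about equal size, from the shortest (60 to 684 bases) to the longest (2139 to 14733 bases), the median level was 98.2, 76.3, 57.3, 35.6 and 21.4 FPKM. Across the 5625 models, Spearman's rho between length and level was -0.36, a description across genes, which are not replicates. The 100 most abundant models had a median length of 727.5 bases against 1251 bases for all.

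Cytosolic ribosomal proteins, the protein part of the ribosomes that translate nuclear messages, made up the largest share of any function. Their 128 gene models held 27.5% of the summed FPKM in DSE001 and 27.6% in DSE002 (27.6% ± 0.132, SD, n = 2). The large subunit held 14.5% ± 0.0742 with 75 models and the small subunit 13.02% ± 0.0577 with 53 (SD, n = 2). All 128 models had a mean above 100 FPKM, and their middle 50% ran from 1193 to 2761 FPKM, a 2.31-fold range, against a 5.40-fold range for all genes of at least 1 FPKM. This narrow spread was shared by both subunits, at 2.40-fold for the large and 2.11-fold for the small. Of the 138 names in the list, 107 had a model of their own name. A copy was flagged for 56 of the 128 models, and for 369 of all 5625. The flag marks a near-identical gene in the reference (at least 95% identity over 200 bases) or a name shared with another model. Between near-identical copies the authors' counting could split reads.

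Within the small subunit, RPS12 was highest at 11263 and 10909.5 FPKM. RPS20 stood at 8484 and 8521 FPKM and RPS25A at 6937 and 7400.4 FPKM. RPS12 was higher in DSE001, whereas RPS20 and RPS25A were higher in DSE002. RPS28A, RPS26A and RPS2 were also among the top 20, at 6195 and 6669.7 FPKM, at 6569.7 and 6078 FPKM and at 6178 and 5647 FPKM. The lowest small-subunit model was RPS22B at 272 and 282 FPKM. In the large subunit, RPL10 was highest at 8408 and 8066 FPKM, then RPL38 at 7325 and 8841 FPKM. RPP2B, one of the acidic stalk proteins that bind elongation factors, stood at 6299.8 and 6422 FPKM. RPL15B model 1 came next at 5442 and 5245 FPKM. RPL15B model 2, which shares its name, was the lowest of the subunit at 102 and 98.8 FPKM. The duplicate RPL15A had no model under its own name. RPL15B model 1 lies on chromosome XII (positions 187025 to 187639, minus strand), whereas its systematic name, YMR121C, denotes a gene of chromosome XIII. The high level of model 1 may therefore be that of RPL15A. RPL38 was higher in DSE002, whereas RPL10 was higher in DSE001, so the order of this pair turned between the cultures.

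The level of many ribosomal protein genes is understated in the deposited values because the length used is the span of the model from start to end, introns included, for all 5625 models. Among 86 ribosomal protein genes with a single model, 54 had a span more than 1.1 times the coding length of the S288C reference, and their median was 1619 FPKM against 4020 FPKM for the other 32. Divided by coding length in place of span, the 54 genes had a median of 3653 FPKM, and RPL30, which had rank 22 among these 86 genes by span, had rank 2 among them at 10602 and 11097 FPKM. RPL32, RPL25 and RPL28 entered the top 10 of these 86 genes in the same way, at a mean of 8106, 7369 and 6993 FPKM. The middle 50% of the 86 genes narrowed from a 2.45-fold to a 2.01-fold range, and the share of all ribosomal protein models in the pool went from 27.6% to 34.1%. The use of coding length was chosen after seeing the data.

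Duplicated ribosomal protein genes mostly differed in level, with the same copy the higher in both cultures. Of 34 pairs measured apart, 27 were not near-identical copies, and in these the higher copy exceeded the lower by a median of 1.56-fold. The copy named A was the higher in 17 of the 27 pairs and the copy named B in 10. In 26 of the 27 pairs the same copy was higher in both cultures, the exception being RPL21A and RPL21B, which differed by 1.03-fold. The widest gap was between RPS22A at 4895 and 4719.7 FPKM and RPS22B, which is 17.3-fold by span and 4.44-fold by coding length, because RPS22B spans 1533 bases with a coding length of 393 bases. RPS9B exceeded RPS9A by 6.21-fold, RPS14A exceeded RPS14B by 5.28-fold and RPL22A exceeded RPL22B by 4.76-fold, and by coding length these ratios were 6.25, 5.73 and 5.31. Pairs at least 2-fold apart numbered 10 by span and 9 by coding length, and in 24 of the 27 pairs the same copy was higher by both lengths. For RPP1A over RPP1B the 2.27-fold excess by span became a ratio of 0.91 by coding length. The next closest pairs were RPS0A and RPS0B, 1.03-fold apart, and RPL16B and RPL16A, 1.07-fold apart.

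Glycolysis and fermentation together formed the next largest function. Their 13 genes held 7.90% of the summed FPKM in DSE001 and 6.65% in DSE002 (7.28% ± 0.885, SD, n = 2), with 5.99% ± 0.668 for the 11 glycolytic genes and 1.29% ± 0.217 for the 2 of fermentation. The range within the pathway was wide, 68.9-fold from PFK2 to FBA1, and 9 of the 13 genes were among the 100 most abundant. The steps divided into a low-level start and a high-level remainder, as the plot of pathway genes shows.

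The first enzymes stood lowest. HXK2, the major hexokinase, which phosphorylates incoming glucose, was at 793 and 825 FPKM (rank 246). PGI1, glucose phosphate isomerase, was at 1011 and 901 FPKM (rank 212). PFK1 and PFK2, the subunits of phosphofructokinase, were the least abundant of the 13, at 304 and 267 FPKM and at 234 and 199 FPKM (ranks 636 and 824). All 4 genes were far above the median of all gene models.

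From aldolase onward levels were higher, and the lowest single value was 3343 FPKM, for CDC19 in DSE002. FBA1 at 15963 and 13860.1 FPKM was followed by TPI1, triose phosphate isomerase, at 8370.4 and 7708 FPKM. TDH3, glyceraldehyde phosphate dehydrogenase, was at 14079 and 10865 FPKM, and 3-phosphoglycerate kinase PGK1 at 6857 and 5594 FPKM. GPM1, phosphoglycerate mutase, was at 11115 and 10004 FPKM and enolase ENO2 at 7293 and 5864 FPKM. By mean level the order was FBA1, TDH3, GPM1, TPI1, ENO2, PGK1 and CDC19. CDC19, pyruvate kinase, closed the pathway at 3786 and 3343 FPKM. In fermentation, PDC1, pyruvate decarboxylase, stood at 4307 and 3503 FPKM and ADH1, alcohol dehydrogenase, at 11305 and 8763 FPKM. GPM1 and ADH1 changed places between the cultures, with ADH1 the higher in DSE001 and GPM1 in DSE002, and their means of 10559 ± 785 FPKM (SD, n = 2) and 10034 ± 1797 FPKM (SD, n = 2) do not differ beyond that spread. PGI1 and HXK2, at means of 956 ± 77.7 FPKM (SD, n = 2) and 809 ± 22.7 FPKM (SD, n = 2), kept their order in both cultures.

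**Figure D2:**
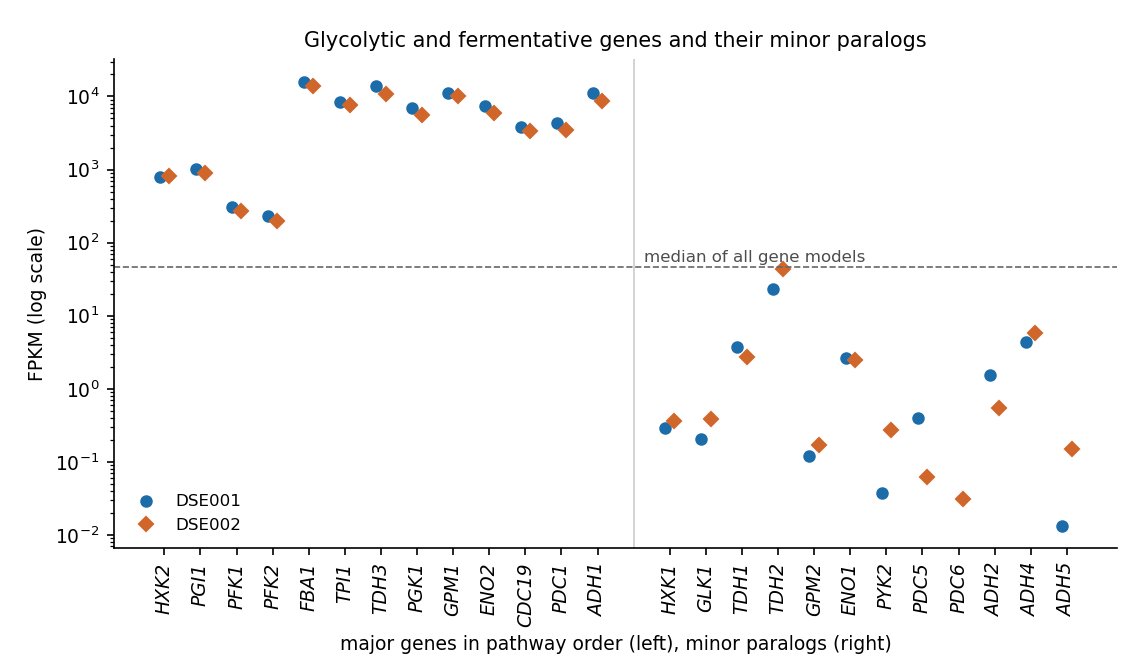
FPKM (log axis) of the 13 major genes of glycolysis and fermentation in pathway order and of 12 minor paralogs, with 1 point for each culture and the median of all gene models as a dashed line. The major genes lie between 199 and 15963 FPKM, and the minor paralogs lie at or below 43.4 FPKM; PDC6 in DSE001 is listed at 0 and is not drawn.

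The 13 genes lie on 10 chromosomes, and none had a neighbour as abundant as itself. Coordinates are those of the deposited CEN.PK113-7D models, with a build version not given in the sources used here. FBA1 spans chromosome XI 332432 to 333511 (minus strand) and GPM1 chromosome XI 170078 to 170821 (minus strand). TDH3 spans chromosome VII 909094 to 910092 (minus strand), HXK2 chromosome VII 30262 to 31722 (plus strand) and PFK1 chromosome VII 997039 to 1000002 (minus strand). TPI1 lies at chromosome IV 541954 to 542700 (minus strand), PGK1 at chromosome III 142895 to 144145 (plus strand) and ENO2 at chromosome VIII 451685 to 452998 (plus strand). CDC19 lies at chromosome I 61012 to 62514 (plus strand), PGI1 at chromosome II 599966 to 601630 (minus strand), PFK2 at chromosome XIII 649289 to 652168 (minus strand), PDC1 at chromosome XII 211492 to 213183 (minus strand) and ADH1 at chromosome XV 153538 to 154584 (minus strand). The nearest gene models on each side, 26 in all, had a median of 56.4 FPKM, and 16 of the 26 were above the median of all gene models. Next to FBA1 were BLI1 at 55.3 and 66.6 FPKM and MPE1 at 49.3 and 53.2 FPKM, and next to ADH1 were MHF1 at 151 and 137 FPKM and PHM7 at 2.27 and 2.25 FPKM, the lowest neighbour. The highest neighbour was TRX1, a thioredoxin, next to PDC1 at 1491 and 1669 FPKM. The smallest step from a pathway gene to its neighbour was 2.29-fold, between PFK1 and PEX21 at 127 and 122 FPKM.

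Transcripts of the minor paralogs were scarce. The 12 with a model held 0.00431% of the pool together, 71.6% of it in TDH2, and GPM3 had no model. Without genes flagged for copies or overlaps, TDH2 among them, the share was 0.00138%. HXK1 and GLK1, the other glucose-phosphorylating enzymes, stood at 0.292 and 0.359 FPKM and at 0.208 and 0.383 FPKM. PDC5 and PDC6 stood at 0.394 and 0.0619 FPKM and at 0 and 0.0309 FPKM, the latter resting on 0 and 1 reads. GPM2 was at 0.121 and 0.168 FPKM, PYK2 at 0.0373 and 0.275 FPKM and ADH5 at 0.0134 and 0.149 FPKM, each with 8 reads or fewer in either culture. TDH1 at 3.76 and 2.73 FPKM, ENO1 at 2.6 and 2.51 FPKM, ADH2 at 1.53 and 0.55 FPKM and ADH4 at 4.39 and 5.83 FPKM were higher, and none exceeded 0.0666% of its major gene. TDH2 stood out at 23.1 and 43.4 FPKM, 0.164% and 0.3999% of TDH3. Over the 999 bases of the reference gene TDH2 is 95.8% identical to TDH3, so some of its 1626 and 829 reads could come from TDH3; that part was not tested. HXK1, GPM2, ENO1 and PYK2 each have a gene of at least 10 times their level on the opposite strand within 500 bases, and the strand setting of the counting was likewise not given.

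Glucose entry and the regulators of glycolysis were modest by comparison. Hexose transporters and glucose sensors held 0.155% of the pool over 19 models, and 0.285% when reads were counted. HXT4 was highest at 685 and 774 FPKM, then HXT3 at 580.3 and 567 FPKM and HXT2 at 179 and 218 FPKM. The low-affinity transporter HXT1 stood at 33.5 and 38.1 FPKM and the glucose sensors SNF3 and RGT2 at 4.2 and 4.4 FPKM and at 21.6 and 20.7 FPKM. HXT9 was the lowest model at 0.0104 and 0.0384 FPKM, and a copy was flagged for 8 of the 19 models, among them HXT6 and HXT7. The 18 models of regulators of glycolytic, ribosomal protein and carbon source genes held 0.0619% together, 0.137% when reads were counted, and none reached 100 FPKM. ABF1 was highest at 75 and 71.4 FPKM, followed by HAP4, an activator of respiratory genes, at 67.4 and 78 FPKM, the glucose repressor MIG1 at 66.9 and 65.7 FPKM and TYE7, an activator of glycolytic genes, at 53.6 and 60.7 FPKM. GCR1, the main activator of glycolytic genes, was at 46.4 and 52.7 FPKM, close to the median of all genes. ADR1, an activator of genes for growth without glucose, was lowest at 1.33 and 1.41 FPKM.

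**Figure D3:**
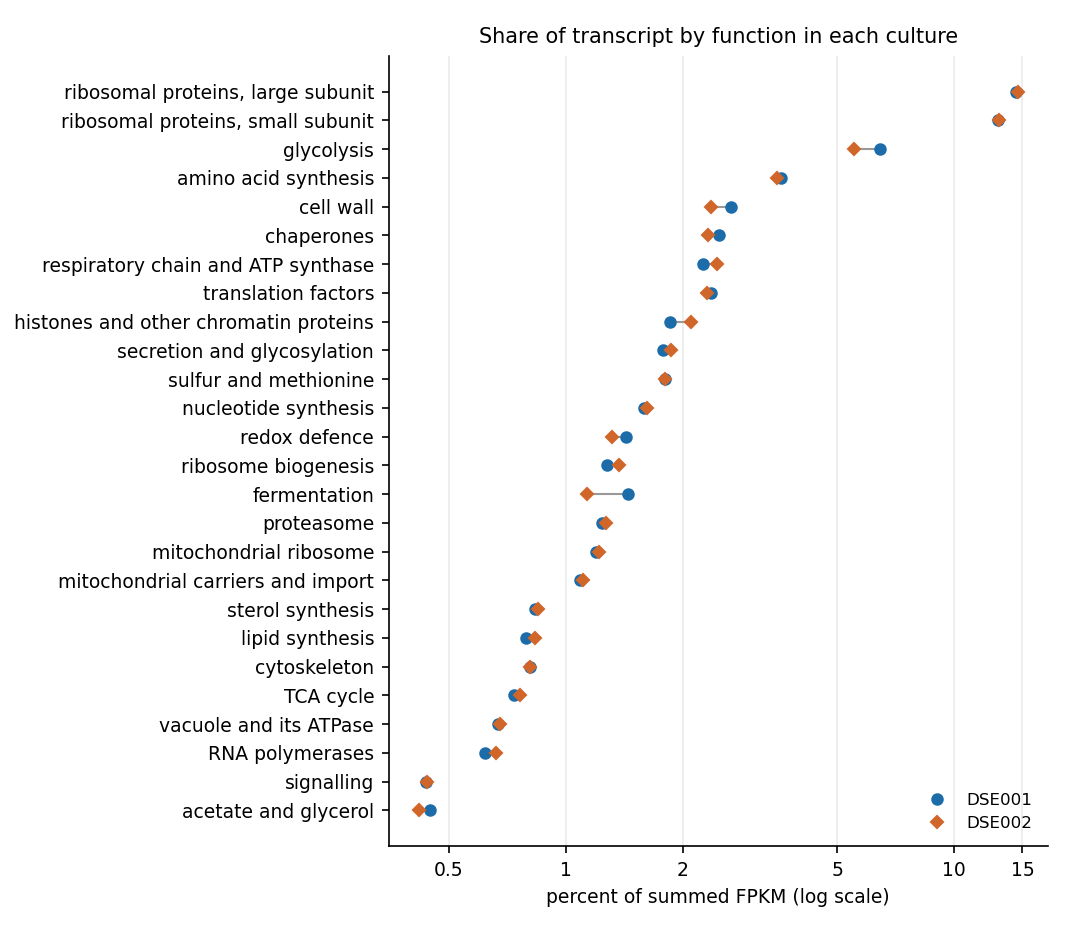
Percent of the summed FPKM (log axis) held by the 26 functional lists with the largest shares, with 1 point for each culture. Both ribosomal subunits lead with shares from 12.98% to 14.58%, and glycolysis and fermentation show the widest gaps between the cultures among these lists.

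The 49 functional lists covered 1487 models and 70.5% of the pool, and the 4138 models in no list held 29.5%. Amino acid synthesis apart from sulfur held 3.54% ± 0.0604 (SD, n = 2) over 79 models. ILV5, an enzyme of branched-chain amino acid synthesis, was its highest member at 2939.6 and 2872 FPKM. SHM2, a serine hydroxymethyltransferase, was at 2155 and 2194 FPKM, and GLN1, glutamine synthetase, at 2159 and 1981 FPKM. GCN4, the transcriptional activator of the amino acid pathways, came next at 2038 and 2091 FPKM, and ARO9, an aminotransferase of aromatic amino acid breakdown, was lowest at 2.76 and 2.85 FPKM. By pathway, the median level was 636 FPKM for the 7 lysine genes, 394 FPKM for the 7 histidine genes, 353 FPKM for the 9 arginine genes and 169 FPKM for the 12 aromatic genes. All of these 35 genes lay above the median of all gene models. The 11 models of branched-chain synthesis had a median of 376 FPKM and 9 of the 11 lay above it, the exceptions being LEU2 model 1 at 33.8 and 29.4 FPKM and LEU2 model 2 at 4.02 and 2.96 FPKM. In ammonium assimilation 2 of 4 genes lay above it, and GDH3 was lowest at 10.5 and 7.77 FPKM.

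Sulfur assimilation, methionine and one-carbon metabolism held 1.80% ± 0.0036 (SD, n = 2) over 29 models, and 2.75% when reads were counted. MET17, which joins sulfide to the carbon skeleton of homocysteine, was highest at 3902 and 4198 FPKM. MET14, adenylylsulfate kinase, stood at 2241 and 2236 FPKM, MET6, methionine synthase, at 1941 and 1898 FPKM and SAM2, an S-adenosylmethionine synthetase, at 1768 and 1736 FPKM. STR2 was lowest at 35.5 and 40.1 FPKM. The 6 genes of the route from sulfate to homocysteine ran from 248 FPKM for MET5 to 4050 FPKM for MET17, with a median of 916 FPKM. Nucleotide synthesis held 1.61% ± 0.0174 (SD, n = 2), led by adenylate kinase ADK1 at 1547 and 1546 FPKM and by the purine genes HPT1 at 1501 and 1486 FPKM, ADE17 at 1308 and 1372 FPKM and ADE13 at 1031 and 1108 FPKM. RNR3, the damage-inducible subunit of ribonucleotide reductase, was lowest at 2.13 and 2.11 FPKM.

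Translation factors held 2.34% ± 0.0407 (SD, n = 2), of which HYP2 alone made 33.7%. EFB1, an exchange factor of elongation factor 1, stood at 1665 and 1625 FPKM and SUI1, an initiation factor, at 1439 and 1681 FPKM. TEF1 model 1, elongation factor 1 alpha, stood at 1514 and 1362 FPKM. It shares its name with another model, and the TEF1 models sum to 2194 and 1958 FPKM. ANB1, the oxygen-repressed copy of eIF5A, was the lowest member at 2.09 and 2.43 FPKM. Ribosome biogenesis factors held 1.32% ± 0.0679 (SD, n = 2) over 91 models with a median of 98 FPKM, led by SNU13, NHP2, GAR1 and NOP1 at 767 and 798 FPKM, at 769.8 and 779 FPKM, at 689 and 761 FPKM and at 712 and 691 FPKM. These 4 encode core proteins of small nucleolar ribonucleoproteins. UTP20 was lowest at 12.2 and 12 FPKM.

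The cell wall held 2.52% ± 0.219 (SD, n = 2) over 43 models, and CCW12 alone made 48.6% of that. CWP2, a mannoprotein, stood at 2376 and 2346 FPKM, BGL2, a glucan-modifying enzyme, at 1509 and 1494 FPKM and GAS1, another, at 907 and 898 FPKM. The flocculation gene FLO1 was lowest at 1.1 and 1.04 FPKM and has near-identical copies. Levels within this list varied widely, with an 18.5-fold range for the middle 50%. The pentose phosphate list varied still more, with a 56.9-fold range for the middle 50%. Outside that range lay TAL1 at 1084 and 1173 FPKM and GND1 at 1056 and 961 FPKM. Their isoforms also lay outside it, NQM1 at 4.68 and 6.01 FPKM and GND2 at 3.4 and 3.36 FPKM.

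Histones and other chromatin proteins held 1.86% in DSE001 and 2.10% in DSE002 (1.98% ± 0.171, SD, n = 2). The share was 0.856% when reads were counted, 1.13% without names with several models and 1.17% without genes flagged for copies or overlaps. HTB1, a gene of histone H2B, was highest at 2871 and 3490.2 FPKM. HTB2, the other H2B gene, was at 2247 and 2736 FPKM, and the H2A genes HTA1 and HTA2 were at 1879.7 and 2229.9 FPKM and at 1726 and 1867 FPKM. The models named HHT1 (histone H3) sum to 4846 and 5536 FPKM and those named HHF1 (histone H4) to 4824 and 5044 FPKM. All 8 core histone models lay between 1726 and 3490 FPKM in both cultures. Each was higher in DSE002, as were 3723 of the 5415 models with a mean of at least 1 FPKM. CSE4, the histone H3 variant of centromeres, was lowest at 52.5 and 46.4 FPKM. The messages of the core histones are polyadenylated in yeast, so poly(A) selection does not remove them.

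The respiratory chain and ATP synthase held 2.35% ± 0.136 (SD, n = 2) over 39 nuclear models, with a median of 582 FPKM, and 1.26% when reads were counted. CYC1, the aerobic form of cytochrome c, was highest at 1837 and 1664 FPKM, then ATP15 at 1171 and 1475 FPKM, QCR8 at 1161 and 1341 FPKM and QCR7 at 1097 and 1157 FPKM. NDE2, an external NADH dehydrogenase, was lowest at 2.42 and 1.85 FPKM, while its counterpart NDE1 was at 276 and 297 FPKM. The tricarboxylic acid cycle with mitochondrial pyruvate entry held 0.749% ± 0.0190 (SD, n = 2), and MPC2, a subunit of the pyruvate carrier, led it at 1997 and 2181 FPKM. IDH2, IDH1 and ACO1 followed at 569.9 and 622 FPKM, at 541 and 502 FPKM and at 459 and 463 FPKM, and CIT3 was lowest at 11.1 and 11.4 FPKM. The 18 models encoded in mitochondrial DNA had 45 reads in DSE001 and 9 in DSE002, so mitochondrial transcripts could not be described from poly(A)-selected RNA.

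Genes for growth without glucose were low. Of the 15 models for gluconeogenesis, the glyoxylate cycle and carboxylate uptake, CIT2, a citrate synthase, made 69.4% of the list at 708 and 729.9 FPKM. MDH3 was at 192 and 201 FPKM, ICL1, isocitrate lyase, at 27.7 and 24.7 FPKM and MDH2 at 21.7 and 24.4 FPKM. The lowest was FDH1 model 1 at 0.351 and 0.417 FPKM. FBP1 and PCK1, the enzymes that reverse glycolysis, were at 8.6 and 7.8 FPKM and at 5.92 and 6.63 FPKM, and the galactose genes GAL1 and GAL10 at 4.58 and 3.5 FPKM and at 5.99 and 6.21 FPKM. Peroxisomal fatty acid oxidation had a median of 12.6 FPKM over 14 models, led by PEX11 at 206 and 199.6 FPKM, with POX1, the first enzyme of the pathway, lowest at 4.63 and 5.45 FPKM. The hypoxic list of 23 models had a median of 7.89 FPKM. Its highest members were HEM13 at 87.3 and 74.9 FPKM, the hypoxic repressor ROX1 at 64 and 70.8 FPKM, TIR3 at 61.1 and 56.2 FPKM and FRD1 at 50.5 and 54.2 FPKM. OSM1 stood at 46.2 and 54.4 FPKM and TIR2 at 25.1 and 22.5 FPKM, and the other 17 models, SUT1, UPC2, AUS1, PDR11, HES1, TIR1, TIR4, DAN1, DAN4 and the PAU models, lay between 0 and 13.4 FPKM.

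The spread of levels among subunits differed from complex to complex. The 8 nuclear subunits of respiratory complex IV lay within 1.63-fold, from COX4 at 614 and 708 FPKM to COX8 at 1083 and 1068 FPKM. The 8 subunits of the TCP1 ring complex, a chaperonin, lay within 1.64-fold, from TCP1 at 183 and 189 FPKM to CCT4 at 308 and 303 FPKM. The 6 subunits of the MCM helicase, which unwinds DNA at replication origins, lay within 1.83-fold around a median of 30.2 FPKM, all below the median of all genes. Proteasome core subunits, 14 in all, had a median of 495 FPKM and the 19 of the regulatory particle 309 FPKM, and each group spanned about 4-fold, 3.91 and 3.95. PUP3 stood apart in the core at 1164 and 1149 FPKM, and RPN4, the transcriptional activator of proteasome genes, was the lowest of the whole list at 88.2 and 97.3 FPKM. ATP synthase spanned 3.10-fold over 14 subunits, complex III with cytochrome c 4.77-fold over 10 and succinate dehydrogenase 5.32-fold over 4. The subunits specific to RNA polymerase I spanned 5.24-fold, those of polymerase III 9.19-fold and those of polymerase II 10.7-fold. The vacuolar ATPase spanned 12.1-fold, from VMA1 at 122 and 118 FPKM to VMA3 at 1447 and 1449 FPKM. VMA3 encodes a ring subunit, and VMA11 and VMA16, the other ring subunits, stood at 555 and 581 FPKM and at 369.7 and 407 FPKM. Subunits shared by all RNA polymerases had a median of 605 FPKM, against 208 FPKM for those of RNA polymerase II alone, 120 FPKM for polymerase I and 81.6 FPKM for polymerase III. Within the polymerases the largest subunits were lowest, RPO21 at 34.8 and 27.8 FPKM, RPO31 at 21.7 and 20.2 FPKM and RPA190 at 58.2 and 51.7 FPKM. Length moved with level in several of these complexes too. Spearman's rho between length and level was -0.94 over the 10 subunits of polymerase III and -0.82 over the 7 of polymerase II. It was -0.79 over the 14 of the vacuolar ATPase and -0.05 over the 14 of the proteasome core. These are descriptions across genes, and the part of length in these gaps was not tested.

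**Figure D4:**
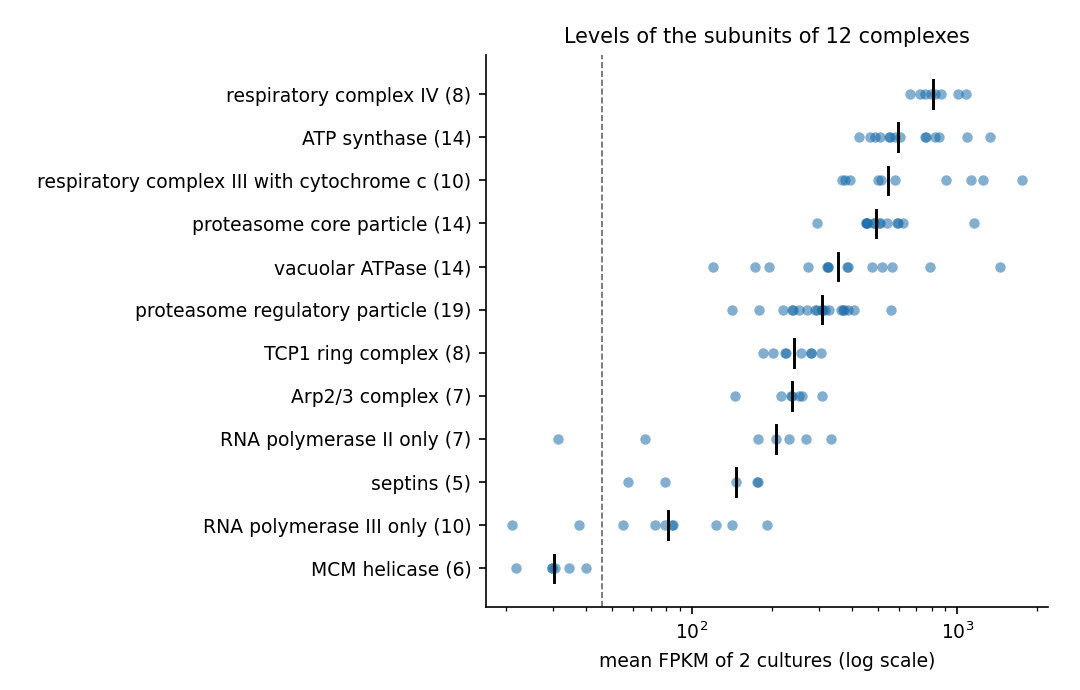
Mean FPKM of the 2 cultures (log axis) of each subunit of 12 complexes, with the number of subunits in brackets, the median of each complex as a bar and the median of all gene models as a dashed line. Complex IV and the TCP1 ring complex are tight, polymerases II and III trail toward low values, and only the MCM helicase lies wholly below the median line.

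By the width of the middle 50% of levels, the proteasome spanned 1.66-fold, the mitochondrial ribosome 1.70-fold, the tRNA synthetases 1.84-fold and the respiratory chain 1.95-fold, against 5.40-fold for all genes. These were the narrowest lists with at least 20 genes of at least 1 FPKM; among smaller lists, the 2-micron plasmid spanned 1.16-fold over 4 genes, fermentation 1.60-fold over 2 and galactose 1.65-fold over 7. Chaperones held 2.40% ± 0.105 (SD, n = 2), led by the cyclophilin CPR1 at 5399.8 and 4120.2 FPKM, HSP10 at 2458 and 2481 FPKM and the nascent-chain proteins EGD2 and EGD1 at 2257 and 2072 FPKM and at 2066 and 1866 FPKM, with SSE2 lowest at 9.67 and 8.98 FPKM. Redox defence held 1.37% ± 0.0817 (SD, n = 2) and 0.848% when reads were counted, led by SOD1, a superoxide dismutase, at 3999 and 3179 FPKM, TSA1 and AHP1, peroxiredoxins, at 2854 and 2499.9 FPKM and at 1879 and 1457 FPKM, and TRX1. OYE3 was lowest at 2.46 and 1.91 FPKM. The mitochondrial ribosome held 1.21% ± 0.0123 (SD, n = 2) over 72 models, from RSM22 at 42.7 and 50.2 FPKM to MNP1 at 483 and 459.7 FPKM. Its median of 159 FPKM was far under the 1687 FPKM of the cytosolic ribosome, and no member reached the top 100.

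Unread and nearly unread models were mostly ones with a copy flagged. Of the 67 models with no read in either culture, 54 carry that flag, 7 are mitochondrial and 21 lie on unplaced telomere sequences. The longest 10 all share a name with another model and lie in subtelomeric families. Among them are YBL113C model 5 (5268 bases), YRF1-4 model 1 (4569 bases) and YPL283W-A model 1 (4567 bases). At such models the authors' counting, not transcription, can decide the value, so they are listed at 0 and not called silent. The 16 nuclear chromosomes were alike, with a median level between 38.2 FPKM (chromosome I) and 53.1 FPKM (chromosome V).

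The 2 cultures agreed closely across the genome. Over the 5415 models with a mean of at least 1 FPKM, Pearson's r of log2(FPKM + 1) was 0.995 and Spearman's rho 0.994, both across genes, which are not independent replicates. The log2 difference, DSE001 minus DSE002, had a median of -0.09 and an SD of 0.19. A typical gene had a coefficient of variation of 7.01%, and 89.3% of genes lay within 1.25-fold and 99.3% within 1.5-fold. Genes between 1 and 10 FPKM differed more, with an SD of 0.23, than those over 1000 FPKM, with 0.16. Counting error made a small part of the spread among the 5226 models with at least 100 reads in both libraries. There the SD of the log2 ratio of reads was 0.194, of which counting gives 0.0562 and 0.185 remains. Counting error was larger between 1 and 10 FPKM, with a median counting SD of 0.127, than over 1000 FPKM, with 0.00929. These counting SDs are on the log2 ratio of reads, whereas the SD of 0.23 is on log2(FPKM + 1). The part of counting in that 0.23 was therefore not measured. Differences between the cultures and between their library preparations cannot be told apart with 1 library per culture.

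Few genes differed widely. At 2-fold or more, 2 of 5415 genes (0.0369%) were higher in DSE001 and 1 (0.0185%) was lower. DSK2, a ubiquitin receptor of the proteasome pathway, was 268 and 119 FPKM, a log2 difference of 1.16 resting on 21237 and 2555 reads. YBL109W model 2 at 5.29 and 1.94 FPKM and HMRA1 model 2 at 8.77 and 20.3 FPKM each share a name with another model. At 1.5-fold or more, 25 genes (0.462%) were higher and 13 (0.24%) lower in DSE001. After DSK2 the largest excesses in DSE001 with a mean of at least 10 FPKM were IMP2', CYC3, SPC25, RRD1, YAT1, YHR033W, YJR115W, ILV6 and YCR051W, with log2 differences of 0.80 to 0.63. CYC3, which attaches heme to cytochrome c, stood at 143 and 84.5 FPKM, and ILV6, the regulatory subunit of acetolactate synthase, at 389 and 249.7 FPKM. After HMRA1 model 2 the largest deficits were TDH2, YOL153C model 3, MSH3 model 2, YLR297W, ATX1, DPC7, COS8, PET100 and YPL257W, with log2 differences of -0.88 to -0.58. ATX1, a copper chaperone, stood at 244 and 378 FPKM. A copy or a shared name was flagged for 4 of these 10, HMRA1 model 2, TDH2, YOL153C model 3 and MSH3 model 2. The same flag falls on 369 of all 5625 models.

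The difference between the cultures followed base composition. Across 5381 genes with a reference coding sequence (99.4% of those compared), Spearman's rho between the log2 difference and GC content was 0.71. In 4 equal classes from the GC-poorest genes to the GC-richest, the median log2 difference was -0.23, -0.13, -0.05 and 0.10. The correlation with length was -0.10 and with level 0.14, both smaller in size. Measured against the median of genes in the same of 20 classes of GC content, an alternative chosen after seeing the data, the SD fell from 0.19 to 0.13, the number of genes 1.5-fold apart from 38 to 10 and the number 2-fold apart from 3 to 1. That single gene is TDH2, at -1.18. DSK2, with a GC content of 51.4%, kept a difference of 0.87.

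Functional lists differed between the cultures by small amounts. In glycolysis and fermentation, 12 of 13 genes were higher in DSE001, HXK2 being the exception at -0.06. Over all 5415 genes tested, 1692 were higher in DSE001 and 3723 lower. The median log2 difference of glycolysis and fermentation was 0.20 against -0.09 over all genes tested. TDH3 and ADH1 passed 1.25-fold, 2 of 13, where 3.23% of all genes were at least 1.25-fold higher in DSE001 and 7.46% lower. Beside this stands their base composition: the list's median GC content was 45.2% against 39.8% for all genes compared, and relative to genes of like GC its median difference was 0.08. Ribosomal proteins had a median difference of -0.02, which is 0.06 relative to the median of all genes and -0.05 relative to genes of like GC, with 1 of 128 at least 1.25-fold higher in DSE001 and 0 lower. Histones were at -0.10, and -0.14 relative to genes of like GC. Respiration was at -0.12 and -0.09 on the same scales. Meiosis genes had the lowest median of all lists, -0.21, and a median GC content of 37.1%, and relative to genes of like GC they were at -0.03. The part of base composition in these differences beyond these values was not tested.

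**Figure D5:**
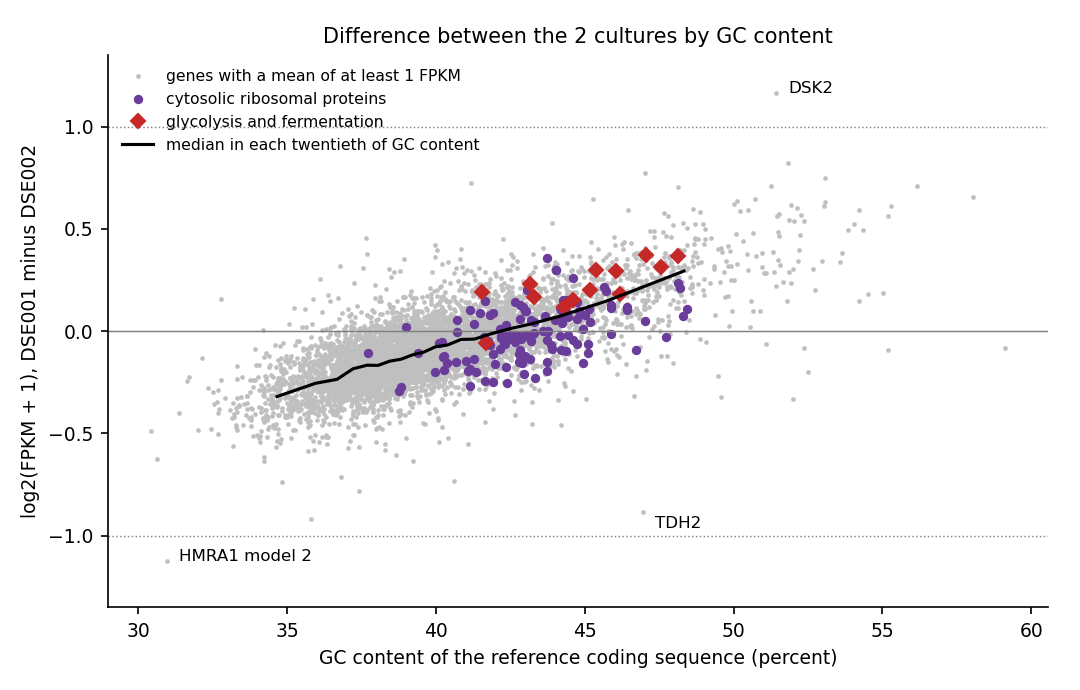
Log2 difference between the cultures (DSE001 minus DSE002, on log2(FPKM + 1)) against GC content of the S288C coding sequence for 5381 genes, with glycolytic and ribosomal protein genes coloured, the median in each of 20 classes of GC content as a line and 2-fold as dotted lines. The median rises from -0.23 in the GC-poorest of 4 classes to 0.10 in the richest. All genes of glycolysis and fermentation but HXK2 lie above the median of their class. Relative to it they run from -0.04 (HXK2) to 0.23 (PFK1), with a median of 0.08.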

How the data were processed

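The deposited table holds FPKM values per gene model, computed by the authors. Only the 2 IMX372 columns were used, and 4 further columns of values were not used. STAR 2.5.4a, SAMtools, featureCounts, edgeR and DESeq2 are named in the submitters' processing notes without their roles. The build version and the strand setting were not given in the sources used here. Per the labels' protocols, libraries were made with the TruSeq stranded mRNA kit.

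Gene lists, members and comparisons were chosen with earlier results of these data known. Whole reads were recovered for 100% of values (tolerance 0.01 reads), and floors and read counts come from them and cover counting error only. Of 5625 gene models, 5556 were matched to a name, and 287 share a name with another model and carry a model number. Names, coding lengths and GC content came from the RefSeq S288C R64 reference, which is not the build of the files, so no sequence was read by coordinates. A copy was flagged for 369 models. The flag marks a coding sequence of that reference with at least 95% identity to another over 200 bases (BLAST 2.17.0). It also marks every model that shares a name with another, whatever their identity. Log2 differences used log2(FPKM + 1), which understates differences of low genes, over models with a mean of at least 1 FPKM. Spreads are the SD of 2 cultures; no test was made, since 1 group was described. Scripts used Python 3.11.15, numpy 2.4.6, pandas 2.3.3 and scipy 1.17.1, and were tested on simulated data.

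Named genes were the 20 of highest mean level, up to 4 highest members and the lowest of each list described, the 10 largest log2 differences in each direction at a mean of at least 10 FPKM, 3 genes near the median, the label check lists, all of glycolysis and fermentation, and up to 10 unread models, longest first. Genes named outside this rule (neighbours of the loci, ends of complexes and duplicated pairs, other isoforms and genes in no list) were chosen after their values were seen. Some genes that the rule names are not reported here. The alternatives tried were shares of reads, leaving out repeated names or copies, each library alone, other thresholds, pseudocounts, filters and scalings, and, added after seeing the data, coding length and genes of like GC.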

Additional observations from a re-analysis of the deposited data

How the results depend on the processing

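No paired analysis was possible because only 1 group was described and no test was made. Counted as shares of reads, which weight long genes more, ribosomal proteins held 22.2%, glycolysis and fermentation 8.56%, the 10 most abundant genes 7.36% and the 100 most abundant 28.5%. Ribosomal proteins held 23.1% without names with several models, 22.1% without genes flagged for copies or overlaps and 34.1% per reference coding length. The median level was 48.6 FPKM over genes of at least 1 FPKM. The count of genes 2-fold apart was 7 with a pseudocount of 0.1, 1 with a pseudocount of 5, 38 at 1.5-fold and 1 relative to genes of like GC. With each library alone, ribosomal proteins held 27.5% to 27.6%, glycolysis and fermentation 6.65% to 7.90%, the top 10 from 10.2% to 11.6% and the top 100 from 37.6% to 39.3%; 5417 to 5421 models reached 1 FPKM, and the median was 44.4 to 47.2 FPKM. Of 45 lists, 33 kept a share within 1.5 times when reads were counted (beyond it were histones, respiration, redox and stress, which were lower, and tRNA synthetases, hexose transport, trehalose and glycogen, galactose, sulfur, membrane transport, cell cycle and regulators, which were higher), 43 without copies or overlaps, 44 without names with several models and 45 per coding length. The depth of DSE002 limits values below 0.157 FPKM at 1 kb.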

Other observations

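Outside the 49 lists, 8 models were among the 100 most abundant. Besides YDR524C-B they included TMA19, the yeast homologue of a translationally controlled tumour protein, at 5647 and 5006 FPKM, and SPO24 at 4169 and 4521 FPKM. CCW22 stood at 2462 and 2465 FPKM, STM1, which binds ribosomes, at 2403 and 2177 FPKM and NCW1 at 2343 and 1875 FPKM. MIN10 was at 1878 and 2019 FPKM and DLD3 at 1812 and 2020.2 FPKM. These genes were chosen after their values were seen. SPO24 spans 204 bases and YDR524C-B 201 bases. The model of MIN10 spans 843 bases against a reference coding length of 264, and that of SHR5, at 1429 and 1523 FPKM, spans 1463 against 714, so the deposited boundaries of both go beyond the reference gene.

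Further down, nuclear transport was represented by NTF2 at 1271 and 1377 FPKM, the GTPase GSP1 at 903 and 806 FPKM and its partner YRB1 at 859 and 846 FPKM, which differed little between the cultures. YHB1, the flavohaemoglobin that removes nitric oxide, stood at 1583 and 1711 FPKM. The eisosome proteins NCE102 and PIL1, which shape the plasma membrane, were at 1788 and 1898 FPKM and at 837 and 816 FPKM. CTS1, the chitinase that separates daughter cells, was at 709 and 716 FPKM. Among stress genes HOR7 at 2046 and 2553 FPKM made 58.2% of its list by FPKM, whereas HSP26 stood at 39.8 and 35 FPKM and DDR2 at 21.1 and 19.1 FPKM. The plasma membrane proton pump PMA1, at 1477 and 1301 FPKM, made 40.6% of the list of membrane transport by FPKM.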
